A study of Mus musculus with 12 samples.

Results

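The genes described here are 10 matrix metalloproteinases (MMPs) and tissue inhibitors of metalloproteinases (TIMPs), taken by symbol from the 18376 genes measured by RNA sequencing in mouse bone marrow-derived macrophages (BMDMs). They were the gelatinases *Mmp2* and *Mmp9*, the collagenases *Mmp8* and *Mmp13*, the macrophage elastase *Mmp12*, the membrane-anchored *Mmp14*, the secreted *Mmp19*, and the inhibitors *Timp1*, *Timp2*, and *Timp3*. All 10 were found once each and all passed the filter for testing, a mean of at least 5 normalized counts over the 12 libraries. BMDMs are macrophages grown in a dish from marrow progenitors of wild type C57BL6/J mice, here with 50 ng/ml M-CSF in every group. CTRL cells had no further factor, Act cells were given activin A at 50 ng/ml, FST cells were given FST288 at 250 ng/ml, and Act + FST cells were given both, for 6 days with 3 libraries in each group. FST288 is a short form of follistatin, the secreted protein that traps activin A. The comparisons ask which MMP and TIMP transcripts activin A alters in macrophages, and how much of that is left when FST288 is present. The cultures stand in for tissue macrophages without the surrounding cells of a tissue, and the labels do not say whether the 3 libraries of a group came from separate mice or cultures. The p-values below therefore measure the spread between these libraries, which may be technical.

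MMPs are zinc-dependent endopeptidases that cut collagens, elastin, and other components of the extracellular matrix (ECM), and also release or inactivate cytokines. Most are secreted as inactive proenzymes, whose prodomain has to be removed. TIMPs bind the active site and block it, and TIMP2 also has a part in activation. MMP14 at the cell surface holds TIMP2, which in turn docks pro-MMP2, and a neighbouring free MMP14 molecule then cleaves and activates it. MMP14, TIMP2, and MMP2 thus work as an activation complex. Macrophages are known as the main source of MMP12, while MMP8 and MMP9 are stored in neutrophil granules, although macrophages make MMP9 too.

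The values are the authors' normalized counts, that is reads per gene scaled between libraries and rounded to whole numbers. Library totals lay between 5643708 and 5955400 in all 12 libraries, and the original read depth cannot be read from scaled values. All 10 macrophage markers examined were present, with *Csf1r*, the M-CSF receptor, at 3134 to 3578 normalized counts and *Adgre1* (F4/80) at 2037 to 2411. *Mrc1*, the mannose receptor, was at 2158 to 2466 in Act and 3018 to 3448 in the other groups. A gene was called changed where the fold was 2 or more and p, adjusted by Benjamini-Hochberg in limma over all 14318 genes tested, was 0.05 or less.

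4 members changed in Act compared with CTRL, in opposite directions. *Mmp2* and *Mmp14* rose, 10.8-fold and 5.46-fold, while *Mmp12* and *Timp1* fell, 2.56-fold and 2.53-fold. Among all genes tested 5.66% were called in this comparison, 2.58% as higher and 3.09% as lower. The other 6 members, *Mmp8*, *Mmp9*, *Mmp13*, *Mmp19*, *Timp2*, and *Timp3*, did not pass. The median log2 fold change was -0.23 over the 10 members and 0.00 over all genes tested. The 3 libraries of Act lay wholly outside the range of CTRL for 5 of 10 members, against 35.7% of all genes.

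**Figure D1:**
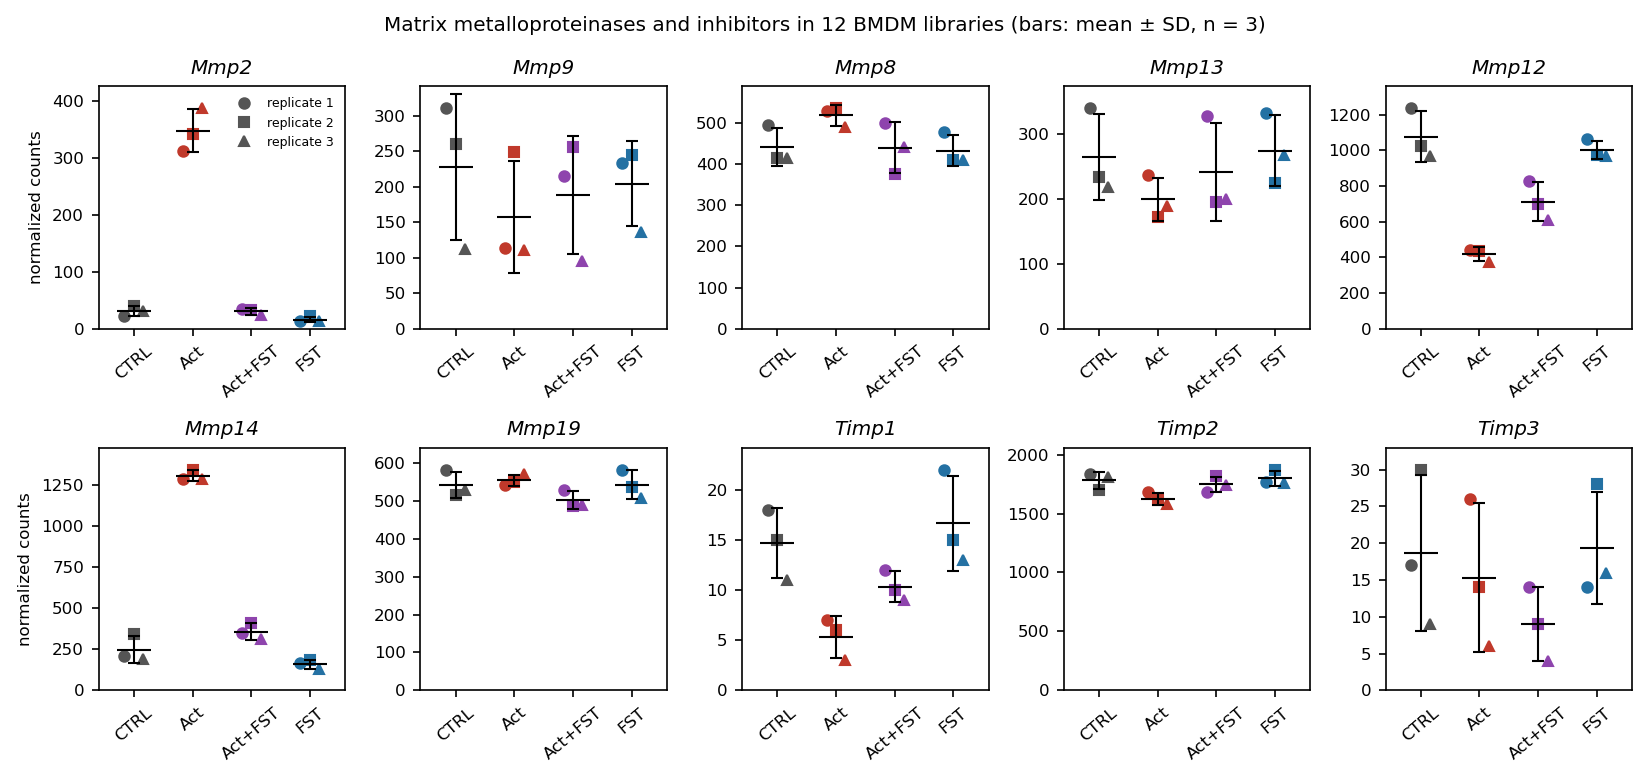
Normalized counts (vertical axes, each from 0) of the 10 members in CTRL, Act, Act + FST, and FST, with 1 symbol per library, shaped by replicate number, and the mean with its SD as bars. The Act libraries of *Mmp2* (313 to 388) and *Mmp14* (1288 to 1347) lie far above all others, those of *Mmp12* (372 to 444) and *Timp1* (3 to 7) lie below all others, and *Mmp9* differs more between replicates than between groups.

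The promoters of members called in this comparison are shown first, as far as the RefSeq table for the GRCm38.p6 build holds them, together with that of *Mmp13*, an uncalled neighbour of *Mmp12*. Promoters of 7 members were matched. No promoter is printed for *Mmp2*, *Mmp9*, and *Mmp19*. Each run gives the 250 bases before an annotated start on the strand of the gene, which was the plus strand for all 5 runs, and 2 starts are listed for *Mmp12*. Capitals mark matches, on either strand, to the AP-1 site (TGANTCA), the TATA box (TATAAA), the SMAD box (CAGACA), or the GC box (GGGCGG). AP-1 is the FOS and JUN transcription factor known from many MMP promoters, and SMAD proteins carry the activin signal to DNA.
Mmp14 (chr14:54431348-54431597): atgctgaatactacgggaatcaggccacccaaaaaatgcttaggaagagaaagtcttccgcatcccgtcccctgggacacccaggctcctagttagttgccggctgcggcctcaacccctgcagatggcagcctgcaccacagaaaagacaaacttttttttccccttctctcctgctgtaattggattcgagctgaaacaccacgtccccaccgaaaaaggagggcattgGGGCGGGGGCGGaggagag
Mmp12, first start (chr9:7344147-7344396): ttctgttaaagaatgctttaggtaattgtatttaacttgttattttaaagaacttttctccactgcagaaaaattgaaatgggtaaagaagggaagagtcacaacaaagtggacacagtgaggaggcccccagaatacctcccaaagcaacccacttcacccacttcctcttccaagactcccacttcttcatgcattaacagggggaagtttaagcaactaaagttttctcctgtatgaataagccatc
Mmp12, second start (chr9:7347124-7347373): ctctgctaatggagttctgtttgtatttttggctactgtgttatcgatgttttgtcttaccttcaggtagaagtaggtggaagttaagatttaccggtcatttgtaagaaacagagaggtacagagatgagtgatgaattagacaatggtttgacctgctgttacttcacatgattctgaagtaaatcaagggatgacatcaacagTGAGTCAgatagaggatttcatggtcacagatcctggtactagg
Timp1 (chrX:20869916-20870165): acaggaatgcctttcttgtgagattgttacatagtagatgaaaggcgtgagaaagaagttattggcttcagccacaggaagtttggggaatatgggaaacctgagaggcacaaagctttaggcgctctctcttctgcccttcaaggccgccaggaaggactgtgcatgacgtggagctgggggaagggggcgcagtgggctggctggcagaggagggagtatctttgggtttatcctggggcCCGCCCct
Mmp13 (chr9:7272264-7272513): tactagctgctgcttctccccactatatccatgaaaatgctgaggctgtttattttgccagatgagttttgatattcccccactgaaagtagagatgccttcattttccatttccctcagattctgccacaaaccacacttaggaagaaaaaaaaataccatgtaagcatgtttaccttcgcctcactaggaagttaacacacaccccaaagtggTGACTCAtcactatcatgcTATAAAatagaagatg
The *Mmp14* run held 2 adjacent GC boxes, beginning 19 and 13 bases before the start, and no AP-1, TATA, or SMAD match. Of the *Mmp12* runs the second had an AP-1 match 44 bases before its start, and the first had none of the 4 motifs. *Mmp13* had an AP-1 match at 35 bases and a TATA box at 16 bases, and *Timp1* had a GC box at 8 bases. Of 32851 promoters in the table, 6.75% held the AP-1 letters, 12.4% the TATA letters, 17.1% the SMAD letters, and 32.7% the GC box letters in the same window. The AP-1 letters were thus in front of a member that fell and of a member that was not called. Matches of this kind describe letters and are not binding sites.

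*Mmp2* encodes gelatinase A, which degrades denatured collagen and basement membrane collagen IV (ENSMUSG00000031740, mm10 chr8:92827291-92853420, plus strand). The CTRL libraries had 23, 41, and 32 normalized counts and the Act libraries 313, 343, and 388. With FST288 they were 35, 33, and 24 in Act + FST and 13, 22, and 14 in FST. The lowest Act library stood far above the highest library of any other group, and Act + FST overlapped CTRL. The rise in Act was 3.43 on the log2 scale compared with CTRL (SE 0.24, limma adjusted p = 2.1e-06) and 3.47 compared with Act + FST (limma adjusted p = 2e-06). Without any 1 of the 6 libraries compared, the log2 fold change of *Mmp2* in Act versus CTRL stayed between 3.22 and 3.63. Between Act + FST and CTRL the log2 difference was -0.04, with a 95% confidence interval from -0.57 to 0.49. The lowest values of *Mmp2* were those of FST, whose 3 libraries all lay below all CTRL libraries at a mean of 16.3 ± 4.93 (SD, n = 3) compared with 32 ± 9 (SD, n = 3). That log2 difference of -0.93 did not pass (limma adjusted p = 1, and 0.61 with the replicate number as a block), and 5.55% of all genes had no overlap between these groups.

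*Mmp14* encodes MT1-MMP, which cleaves fibrillar collagen at the cell surface and activates pro-MMP2 (ENSMUSG00000000957, chr14:54431612-54445364, plus strand). CTRL libraries had 207, 341, and 193 normalized counts, followed by 1290, 1347, and 1288 in Act, 353, 411, and 311 in Act + FST, and 165, 185, and 128 in FST. The Act libraries were closer together than those of any other group relative to their level, and replicate 2 was the highest library in all 4 groups. The log2 rise in Act was 2.45 compared with CTRL (SE 0.19, limma adjusted p = 3.8e-06) and 1.87 compared with Act + FST (limma adjusted p = 2.4e-05).

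*Mmp14* and *Mmp2* were also compared between Act + FST and FST, which both contain FST288 and differ by activin A alone. For *Mmp14* all 3 Act + FST libraries were above all 3 FST libraries, with a mean of 358 ± 50.2 (SD, n = 3) compared with 159 ± 28.9 (SD, n = 3). This 2.25-fold difference (log2 1.17, SE 0.19) was not called without pairing (limma adjusted p = 0.23), whereas it was called with the replicate block (limma adjusted p = 6.2e-04). No gene was called between these groups without the block and 0.014% of all genes with it. Each of the 3 same-numbered pairs was higher in Act + FST, by 1.09, 1.15, and 1.27 on the log2 scale. The *Mmp2* libraries of Act + FST also lay above those of FST without overlap, by 0.89 on the log2 scale, which was not called in either fit (limma adjusted p = 0.81, and 0.11 with the block). Compared with CTRL, *Mmp14* in Act + FST was 0.57 higher on the log2 scale (limma adjusted p = 0.79, and 0.045 with the block), below the fold required, and 1 CTRL library lay within the range of Act + FST.

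*Mmp12* encodes the macrophage elastase, which cuts elastin (ENSMUSG00000049723, chr9:7344381-7369499, plus strand). Normalized counts in CTRL were 1237, 1024, and 967, and Act had 444, 438, and 372. Values in Act + FST were 826, 702, and 608, and in FST 1063, 974, and 969. Act, Act + FST, and CTRL formed 3 ranges with no overlap, Act + FST lying between the others, while FST overlapped CTRL. The log2 fold change in Act was -1.36 compared with CTRL (SE 0.11, limma adjusted p = 6.7e-06). Compared with Act + FST it was -0.76, which passed the adjusted p (4.7e-04, limma) and not the fold of 2. The lower level of Act + FST compared with CTRL, -0.60 on the log2 scale with a 95% interval from -0.84 to -0.35, had a limma adjusted p of 0.42, and of 5.5e-04 with the block. Compared with FST it was -0.50 (limma adjusted p = 0.62, and 2.3e-03 with the block). All 3 same-numbered pairs were lower in Act + FST in both comparisons, and neither difference reached 2-fold. The annotated exons of *Mmp12* share 2.17% of their bases with *Mmp1b* on the opposite strand.

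The inhibitor *Timp1*, which binds most secreted MMPs, was close to the lower limit of what was tested (ENSMUSG00000001131, chrX:20870166-20874735, plus strand). Its normalized counts were 18, 15, and 11 in CTRL, 7, 6, and 3 in Act, 12, 10, and 9 in Act + FST, and 22, 15, and 13 in FST. All Act libraries were below all other libraries, at low values where counting error can be large. Its size was not tested, because the original read depth is not known. The log2 fold change in Act was -1.34 compared with CTRL (SE 0.32, limma adjusted p = 0.01) and -1.51 compared with FST (limma adjusted p = 0.0044). Compared with Act + FST it was -0.89 (limma adjusted p = 0.069, and 0.016 with the block). With a pseudocount of 5 in place of 1 the first of these became -0.93, under the fold required.

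*Timp1* lies inside the much longer gene *Syn1* (synapsin 1, a protein of neuronal synaptic vesicles), which is read from the opposite strand. In the GENCODE annotation the exons of these genes share no base. Of 10634 genes with a mean of at least 50 normalized counts, *Syn1* had the log2 pattern most like that of *Timp1* over the 12 libraries, with a root mean square difference of 0.195. Those of *Syn1* were 505, 407, and 328 in CTRL, 173, 137, and 116 in Act, 375, 296, and 201 in Act + FST, and 489, 403, and 384 in FST. *Syn1* was thus listed at a mean of 318 over all libraries, and *Timp1* at 11.8. In both genes replicate 1 was the highest and replicate 3 the lowest in all 4 groups. The log2 fold change of *Syn1* was -1.53 in Act compared with CTRL (SE 0.22, limma adjusted p = 3.3e-04). The strand setting of the read counting is not given in the sources used here, and whether reads from one gene were counted for the other was not tested. The level of *Timp1* is uncertain for that reason.

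*Timp2*, the inhibitor that also docks pro-MMP2 on MMP14, had the highest level of the members per length in CTRL, at 480 ± 18.5 (SD, n = 3) normalized counts per kilobase of its longest coding transcript (ENSMUSG00000017466, chr11:118301069-118355740, minus strand). Its normalized counts were 1832, 1703, and 1808 in CTRL, 1681, 1611, and 1578 in Act, 1687, 1816, and 1738 in Act + FST, and 1770, 1873, and 1757 in FST. Act lay below each of the other groups without overlap, by a small step. The log2 difference was -0.13 compared with CTRL (95% interval from -0.23 to -0.03, limma adjusted p = 0.062, blocked 0.027) and -0.15 compared with FST (limma adjusted p = 0.035), a 1.11-fold difference. Of the 3 genes in the activation complex, *Mmp2* and *Mmp14* were thus called higher and *Timp2* was not called. The *Timp2* level per exonic base was above that of 99.2% of tested genes. With a correction that assumes reads with the same start were counted once, an alternative added after seeing the data, its log2 difference was -0.18 (limma adjusted p = 0.053).

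*Timp3*, which stays bound to the ECM and also inhibits ADAM proteases, was low (ENSMUSG00000020044, chr10:86300372-86349506, plus strand). Normalized counts were 17, 30, and 9 in CTRL, 26, 14, and 6 in Act, 14, 9, and 4 in Act + FST, and 14, 28, and 16 in FST. All groups overlapped. The log2 difference of Act from CTRL was -0.33 with a 95% interval from -1.53 to 0.88, which reaches past 2-fold lower and nearly to 2-fold higher. Of its exonic bases 21.3% are shared with *Syn3* on the opposite strand.

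**Figure D2:**
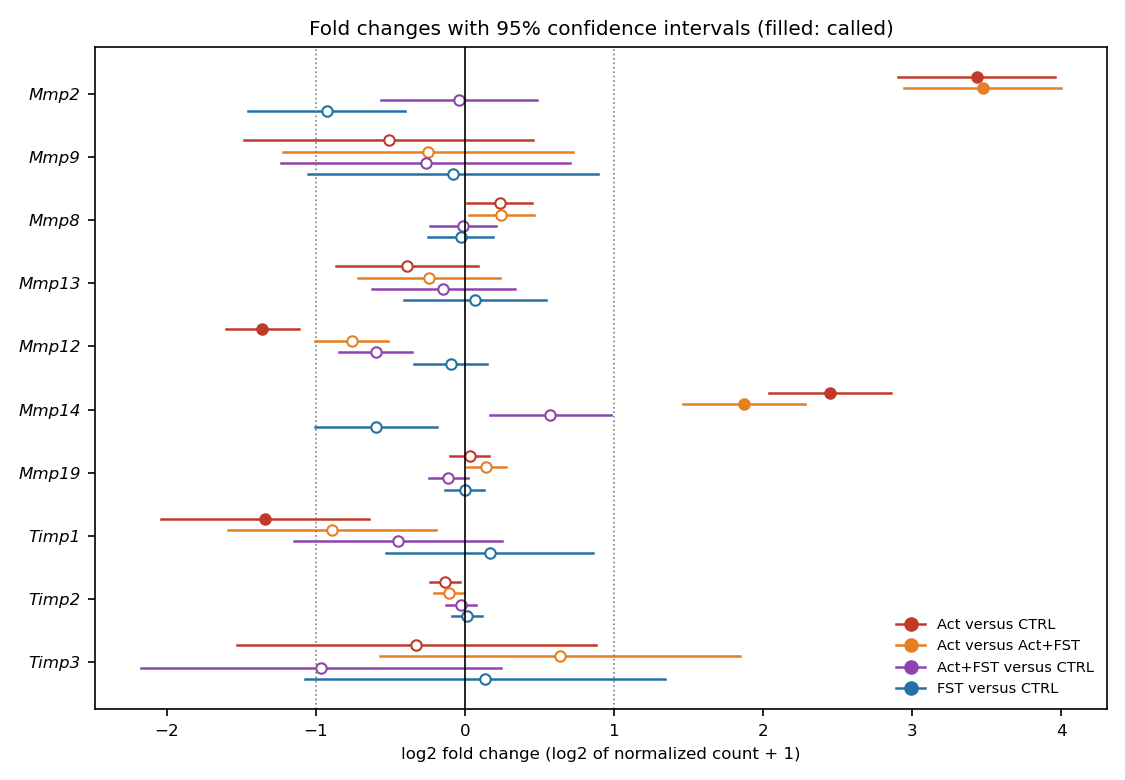
Log2 fold changes of the 10 members (points) with 95% confidence intervals (lines) in Act versus CTRL, Act versus Act + FST, Act + FST versus CTRL, and FST versus CTRL, with dotted lines at 2-fold and filled points for called differences. *Mmp2* and *Mmp14* are filled on the right in both comparisons of Act, *Mmp12* and *Timp1* on the left in Act versus CTRL only, and no member is filled in Act + FST or FST versus CTRL.

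The second gelatinase, *Mmp9*, was not called in any comparison (ENSMUSG00000017737, chr2:164940780-164955850, plus strand). MMP9 degrades the same basement membrane collagen as MMP2. CTRL libraries had 311, 261, and 113 normalized counts, with 114, 249, and 111 in Act, 215, 256, and 96 in Act + FST, and 233, 245, and 136 in FST. Replicate 3 was the lowest library of all 4 groups, and replicate 2 stayed between 245 and 261 whatever the treatment. Act was lower than CTRL in all 3 pairs, by -1.44 on the log2 scale in replicate 1 but by -0.07 and -0.03 in replicates 2 and 3. The difference over the groups was -0.51 (95% interval from -1.48 to 0.46, limma adjusted p = 0.49, blocked 0.072). Leaving out each CTRL or Act library in turn, it ranged from -0.95 to -0.23.

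Collagenases cut the triple helix of fibrillar collagen. *Mmp8*, the neutrophil collagenase (ENSMUSG00000005800, chr9:7558456-7568485, plus strand), was measured at 495, 416, and 415 normalized counts in CTRL, 530, 536, and 489 in Act, 500, 377, and 442 in Act + FST, and 477, 411, and 411 in FST. Act was higher than CTRL in all 3 pairs although the groups overlapped, with a log2 difference of 0.23 (95% interval from 0.01 to 0.45, limma adjusted p = 0.13, and 0.012 with the block), far under 2-fold. *Mmp13*, collagenase 3 (ENSMUSG00000050578, chr9:7272514-7283331, plus strand), was measured at 340, 234, and 218 normalized counts in CTRL, 237, 173, and 189 in Act, 328, 196, and 200 in Act + FST, and 332, 225, and 267 in FST. Replicate 1 was the highest in all 4 groups, and Act was lower than CTRL in all 3 pairs. That log2 difference was -0.39 (95% interval from -0.86 to 0.09, limma adjusted p = 0.26, and 0.002 with the block), under the fold of 2 in both fits.

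*Mmp19*, a secreted MMP that cuts basement membrane proteins, had the smallest log2 difference of Act from CTRL among the members (ENSMUSG00000025355, chr10:128790910-128800824, plus strand). Normalized counts were 581, 517, and 530 in CTRL, 541, 551, and 571 in Act, 530, 488, and 489 in Act + FST, and 583, 538, and 508 in FST. That difference was 0.03 with a 95% interval from -0.10 to 0.16. Of its exonic bases 22.3% are shared with *Tmem198b* on the opposite strand, listed at a mean of 351, and reads there were left out of both genes if the counting did not use strand.

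**Figure D3:**
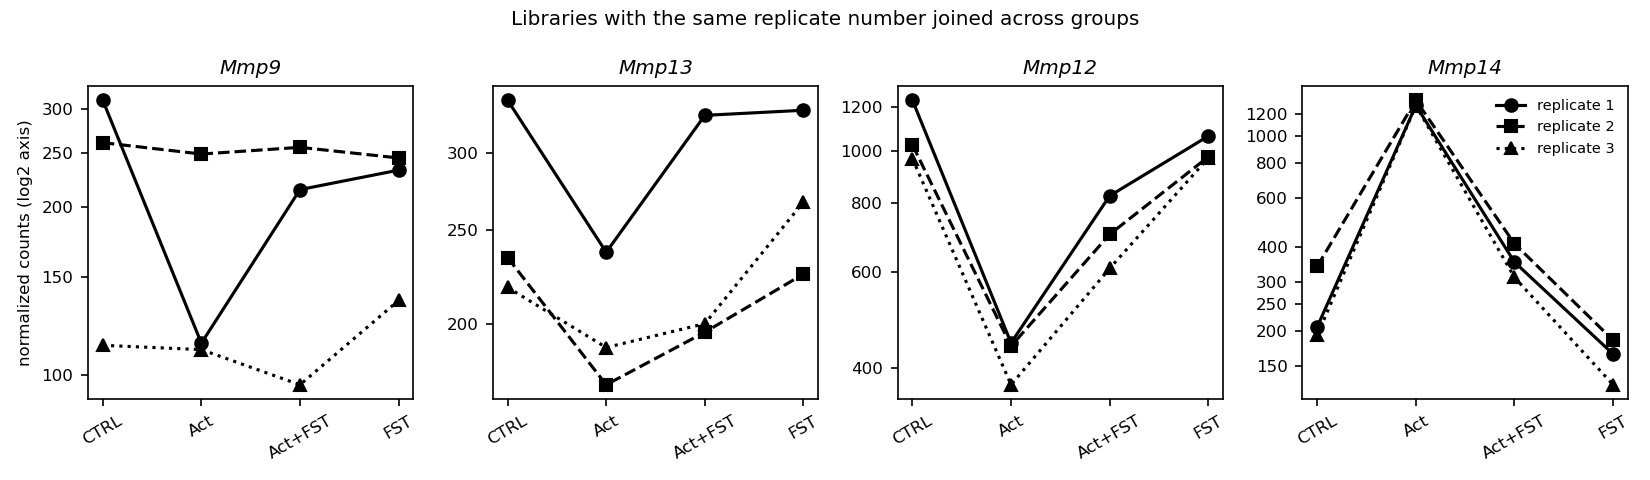
Normalized counts (log2 axes) of *Mmp9*, *Mmp13*, *Mmp12*, and *Mmp14* in the 4 groups, with libraries of the same replicate number joined by a line. The lines of *Mmp12* run nearly parallel, and those of *Mmp14* come together in Act (1288 to 1347) from a wider range in CTRL (193 to 341). Act is at one extreme in every replicate of *Mmp12* and *Mmp14*. *Mmp13* has replicate 1 above the others in all groups, and for *Mmp9* only replicate 1 falls steeply in Act (311 to 114).

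Each group with FST288 was also compared with the others. Act compared with Act + FST had 2 members called, *Mmp2* and *Mmp14*, both higher, and 5.83% of all genes were called, 2.72% as higher. The groups did not overlap for 6 of 10 members, against 34.1% of all genes. Act compared with FST had 4 called, the same genes as Act compared with CTRL (6.47% of all genes). The comparisons share the Act libraries, so they do not count as separate evidence. Between Act + FST and CTRL and between FST and CTRL limma without the block called 0 members and 0% of all genes. With the replicate block it also called 0 members, against 0.0419% of all genes in the former and 0% in the latter. By the blocked adjusted p alone *Mmp12* (limma, 5.5e-04) and *Mmp14* (limma, 0.045) passed between Act + FST and CTRL, against 0.559% of all genes. Without the block an unadjusted limma p under 0.05 was found for 2 members in each comparison. Between Act + FST and CTRL they were *Mmp12* and *Mmp14*, against 655 of 14318 genes. Between FST and CTRL they were *Mmp2* and *Mmp14*, against 299 of 14318 genes. *Mmp12* was the only member without overlap between Act + FST and CTRL, against 6.68% of all genes. Between Act + FST and FST limma called 0 members, with *Mmp2*, *Mmp12*, and *Mmp14*, 3 members, at an unadjusted p under 0.05, against 502 of 14318 genes. In that comparison the groups did not overlap for 4 members, *Mmp2* and *Mmp14* (higher), *Mmp12* and *Timp1* (lower), which are the 4 members called in Act versus CTRL, against 6.54% of all genes. The comparison of Act with CTRL and that of Act + FST with FST share no library. Same-numbered libraries of different groups did deviate together, and the members were chosen with earlier results of these data known. The comparisons therefore do not count as separate evidence either.

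Whether FST288 altered the effect of activin A was tested as the difference between Act minus CTRL and Act + FST minus FST. It was called for *Mmp2*, at 2.55 on the log2 scale (SE 0.34, limma adjusted p = 0.001), and for *Mmp14*, at 1.28 (SE 0.27, limma adjusted p = 0.013). Of all genes 2.65% were called. *Mmp12* had -0.86 (limma adjusted p = 0.0067), under the fold of 2. *Timp1* had -0.73 (limma adjusted p = 0.43), with a 95% interval from -1.71 to 0.26. For the other 6 members the adjusted p was at least 0.4.

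Levels of different genes were compared per kilobase of the longest coding transcript. In CTRL the order was *Timp2* at 480, *Mmp12* at 298, *Mmp8* at 182, *Mmp19* at 160, *Mmp13* at 98.8, *Mmp14* at 76.3, *Mmp9* at 71.9, *Timp1* at 16.6, *Mmp2* at 10.4, and *Timp3* at 3.95 normalized counts per kilobase. With an SD of 24.8 for *Mmp13*, 25.2 for *Mmp14*, and 32.4 for *Mmp9*, those neighbours did not differ beyond their spread. In Act *Mmp14* reached 404 ± 10.3 (SD, n = 3) per kilobase, next to *Timp2* at 438 ± 14.2 (SD, n = 3), and *Mmp2* reached 113, close to *Mmp12* at 116. No gene had more than 0.883 normalized counts per exonic base over the 12 libraries, and *Timp2* had 0.446. Whether high values are compressed was not tested, so distances between high and low genes may be understated. Over all annotated exons in place of the longest transcript *Mmp12* in CTRL was at 149 per kilobase, below *Mmp8* at 182 and *Mmp19* at 154, so the place of *Mmp12* in the order depends on the length used.

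Of the summed level of the 7 MMPs per kilobase of transcript, *Mmp12* held 33.3% ± 1.38 (CTRL, SD, n = 3) and 10.2% ± 0.798 (Act, SD, n = 3). For *Mmp14* the share went from 8.56% ± 2.85 (SD, n = 3) among CTRL libraries to 35.6% ± 0.398 with activin A alone. It was 14.0% ± 2.06 with activin A and FST288 and 5.87% ± 0.954 with FST288 alone. The share of *Mmp2* in CTRL was 1.18% ± 0.396 (SD, n = 3), and that in Act was 9.99% ± 1.28 (SD, n = 3). Over all annotated exons *Mmp14* went from 5.99% in CTRL to 25.2% in Act and *Mmp12* from 21.3% to 6.63%, the same direction with other sizes. Because the shares add to a fixed whole, the rise of *Mmp2* and *Mmp14* lowers the shares of the other MMPs. *Mmp19* held 17.9% in CTRL and 14.4% in Act per kilobase of transcript, at a log2 difference in level of 0.03. The shares would also be altered by any compression of high values, which was not tested.

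*Mmp13*, *Mmp12*, and *Mmp8* belong to a cluster of 10 MMP genes that spans 427 kb on chromosome 9, of which 5 are in the table. *Mmp10* was at most 5 normalized counts and not tested. The fifth, *Mmp27*, is no member and starts 2910 bases after the end of *Mmp8*. Its normalized counts were 672, 704, and 730 in CTRL, 288, 331, and 209 in Act, 723, 757, and 717 in Act + FST, and 721, 771, and 738 in FST. *Mmp27* fell in Act, with a log2 fold change of -1.37 compared with CTRL (SE 0.12, limma adjusted p = 9.3e-06), next to *Mmp8*, whose difference was 0.23. Unlike *Mmp12*, *Mmp27* in Act + FST overlapped FST and CTRL (log2 difference from FST -0.02). Called and uncalled genes thus stood side by side in the cluster.

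**Figure D4:**
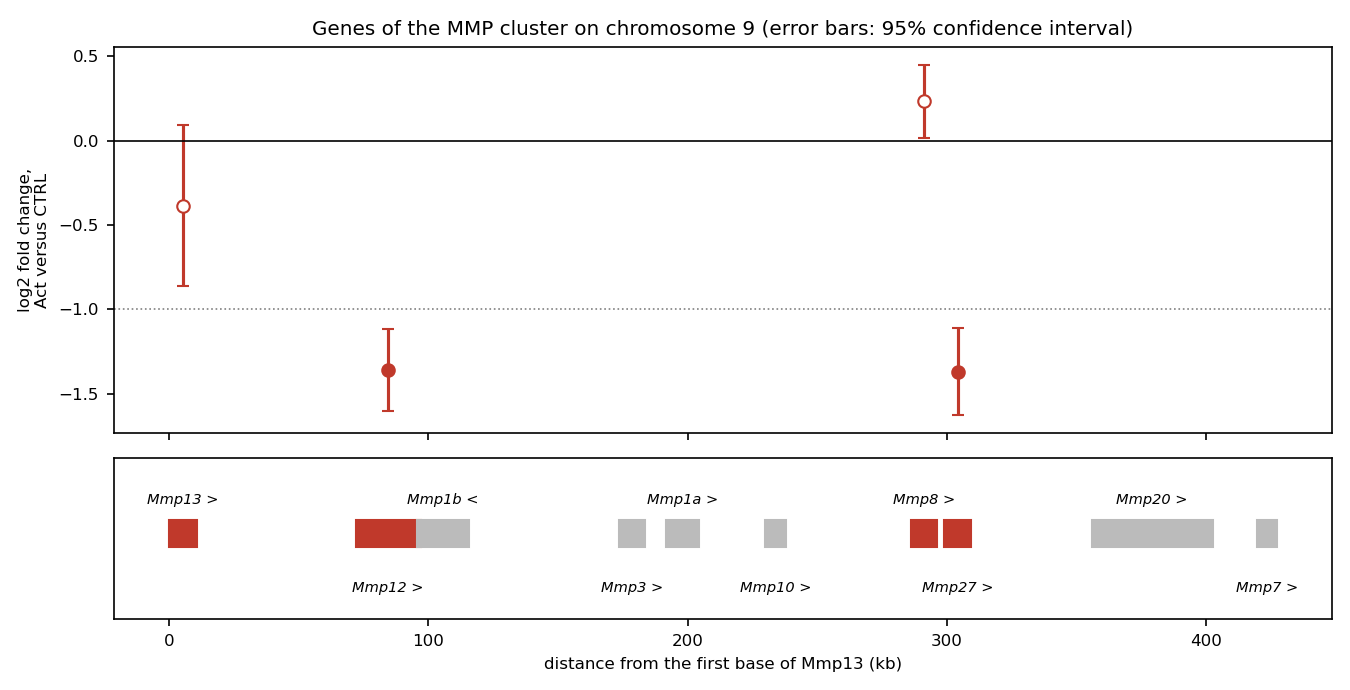
Log2 fold change of Act versus CTRL with its 95% confidence interval (upper panel, filled points called, dotted line at 2-fold lower) for the tested genes of the MMP cluster on chromosome 9, above a map of its 10 genes by distance from the first base of *Mmp13* in kb, with arrowheads for the strand, tested genes in red and others in grey. *Mmp12* and *Mmp27* lie near -1.4, and *Mmp13* and *Mmp8* lie on either side of 0.

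Of 17 other MMP and TIMP family genes looked for, 8 were in the table and 6 were tested. In Act compared with CTRL 2 of the 6 fell and 0 rose, with a median log2 fold change of -0.58. They were *Mmp27* and *Mmp28* (epilysin), the latter at 7, 4, and 6 normalized counts among CTRL libraries and 2, 0, and 2 among Act libraries. *Mmp15*, a membrane-anchored relative of *Mmp14*, had -0.93 compared with CTRL (limma adjusted p = 0.03) and fell compared with Act + FST (-1.13, limma adjusted p = 0.01). Its CTRL libraries had 11, 16, and 16 normalized counts and its Act libraries 7, 8, and 6, opposite in direction to *Mmp14*. *Mmp11* (0.81), *Mmp25* (0.99), and *Mmp23* (-0.23) did not pass.

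The proteins that activate, dock, clear, or restrain MMPs were examined as a list of 23 genes, of which 19 were in the table and 15 were tested. In Act compared with CTRL 2 rose, 2 fell, and 11 did not pass, with a median log2 fold change of 0.04. The genes that rose were *Cav1* (3.96, limma adjusted p = 2.3e-04), encoding caveolin-1 of the membrane domains in which MMP14 is held and internalized, and the serine protease inhibitor *Serpine2* (1.71, limma adjusted p = 6.8e-04). *Cav1* had 15, 17, and 7 normalized counts in the CTRL libraries and 214, 156, and 254 in the Act libraries.

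The 2 genes that fell were *Itgb3*, the beta subunit of the integrin on which MMP2 can dock, and *Reck*, a membrane-anchored MMP inhibitor. *Itgb3* went from 367, 343, and 379 normalized counts (CTRL) to 57, 85, and 37 (Act) (log2 fold change -2.66, limma adjusted p = 1e-05). *Reck* went from 54, 36, and 37 (CTRL) to 12, 26, and 19 (Act) (log2 fold change -1.15, limma adjusted p = 0.014). *Itgav*, the alpha partner of *Itgb3*, moved the other way by 0.95, which passed the adjusted p (limma, 0.0022) and not the fold. *Plau*, the urokinase that makes plasmin, an activator of several pro-MMPs, had -0.64 (limma adjusted p = 0.011), also under the fold. *Furin*, the convertase that removes the prodomain of MMP14, differed by 0.09 on the log2 scale.

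**Figure D5:**
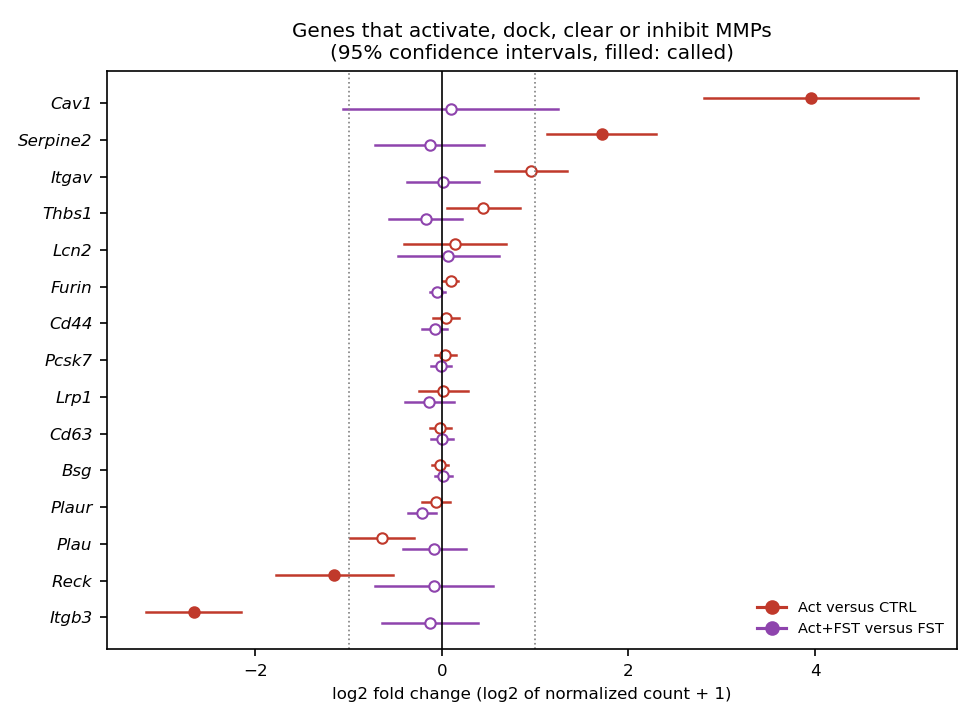
Log2 fold changes (points) with 95% confidence intervals (lines) of the 15 tested genes that activate, dock, clear, or restrain MMPs, for Act versus CTRL and for Act + FST versus FST, with filled points for called differences and dotted lines at 2-fold. *Cav1* and *Serpine2* are filled on the right and *Reck* and *Itgb3* on the left for Act versus CTRL, and no gene is filled for Act + FST versus FST.

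Among matrix substrates of MMPs, 17 of 20 were in the table and 11 were tested. In Act compared with CTRL 2 rose and 0 fell, with a median log2 fold change of 0.99. They were the basement membrane collagens *Col4a1* (2.78, limma adjusted p = 0.0023) and *Col4a2* (1.79, limma adjusted p = 0.04), which MMP2 and MMP9 cut. Both were low, *Col4a1* with 2, 2, and 1 normalized counts among CTRL libraries and 19, 20, and 13 among Act libraries. The mean of *Col4a1* was 1.67 in CTRL, 17.3 in Act, and 3.67 in both Act + FST and FST. It thus reached the mean required for testing only through the Act libraries. The count of genes that rose and the positive median of this list therefore depend in part on that filter. *Fn1*, fibronectin, rose compared with Act + FST (2.00, limma adjusted p = 0.014) and with FST (1.79, limma adjusted p = 0.024), and its log2 difference from CTRL was 0.99 (limma adjusted p = 0.21). Of the 7 tested ADAM family proteases that TIMP3 can inhibit, 1 fell, *Adamts1*, a protease of proteoglycans, with 26, 20, and 25 normalized counts among CTRL libraries and 3, 1, and 3 among Act libraries (-2.95, limma adjusted p = 7.4e-05).

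By the root mean square difference of centred log2 values over the 12 libraries, the genes most like *Mmp2* among 10633 with a mean of at least 50 were *Spsb1* (0.384), *Minar1* (0.453), and *F11r* (0.470). Those most like *Mmp14* were *H2-Ob* (0.269), *Gpr84* (0.310), and *Kynu* (0.348). Those most like *Mmp12* were *Atp6v0d2* (0.146), *Klf4* (0.158), and *Smpd3* (0.164). *Atp6v0d2*, a subunit of the vacuolar proton pump, had means of 1069, 524, 807, and 1047 normalized counts in CTRL, Act, Act + FST, and FST, with Act + FST between Act and CTRL as for *Mmp12*. *Timp1* was followed by *Dhrs9* (0.198) and *Folr2* (0.222) after *Syn1*.

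Markers of other cell types were examined because *Mmp2*, *Mmp13*, *Mmp14*, and the *Timp* genes are also made by stromal cells and *Mmp8* and *Mmp9* by neutrophils. In bulk RNA fewer cells of a type and less RNA per cell cannot be told apart. Of 12 fibroblast and stromal markers 11 were in the table, and 5 were tested. In Act compared with CTRL 0 of the 5 was called by limma, with 2 at an unadjusted p under 0.05, against 4613 of 14318 genes. With the replicate block 2 were called higher, against 2.81% of all genes. They were *Col1a2* (collagen I, log2 fold change 2.76, limma adjusted p = 0.31, blocked 4.7e-04) and *Postn* (periostin, 2.07, limma adjusted p = 0.11, blocked 0.0023). *Postn* was low, averaging 6.75 normalized counts over all libraries. Its mean was 15.7 with activin A alone, 2 without any added factor, and at most 5 where FST288 was present. *Postn* thus passed the filter for testing only through the Act libraries. The count of these markers called higher therefore depends in part on that filter. The summed level was 108, 61, and 55 normalized counts in CTRL, 334, 100, and 96 in Act, 167, 52, and 54 in Act + FST, and 178, 50, and 58 in FST. These sums were higher in Act than in CTRL in all 3 same-numbered pairs, as *Mmp2* and *Mmp14* were, and replicate 1 was the highest in every group. *Mmp2* had its lowest library in replicate 1 in 3 of 4 groups, and *Mmp14* its highest in replicate 2. *Pdgfrb*, a growth factor receptor of stromal cells, had 22, 31, and 22 normalized counts in CTRL, 51, 41, and 43 in Act, 21, 27, and 12 in Act + FST, and 25, 15, and 18 in FST. It rose in Act compared with Act + FST (1.19, limma adjusted p = 0.0099) and with FST (limma adjusted p = 0.0089), and its log2 difference from CTRL was 0.84 (limma adjusted p = 0.06). *Col1a2* had 24, 0, and 0 in CTRL and 109, 9, and 6 in Act, with replicate 1 far above the others. *Acta2*, a smooth muscle actin and the most abundant of these markers, had a difference from CTRL of 0.40 (limma adjusted p = 0.25). *Pdgfra*, another defining receptor, was listed at 0 in all CTRL and Act + FST libraries, at 4, 0, and 0 in Act, and at 2, 0, and 0 in FST. The part of stromal cells in the values of *Mmp2* and *Mmp14* was not tested.

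All 13 neutrophil markers were tested, and their summed level ran from 2535 to 3193 in CTRL, 2849 to 3617 in Act, 2374 to 3372 in Act + FST, and 2465 to 3216 in FST, with replicate 2 the highest of each group. In Act compared with CTRL 2 fell, *Mpo* (-2.01, limma adjusted p = 0.0092) and *Elane* (-1.64, limma adjusted p = 0.025), both enzymes of primary granules. *Prtn3*, a protease of the same granules, fell compared with Act + FST (-1.31, limma adjusted p = 0.034), and had -1.07 compared with CTRL (limma adjusted p = 0.081, and called with the block at 0.002). The most abundant marker was *Csf3r*, the G-CSF receptor, whose CTRL libraries had 1133, 1135, and 1044 normalized counts and whose Act libraries had 1595, 1538, and 1505. Its log2 difference of 0.49 passed the adjusted p (limma, 1.8e-04) and not the fold. Next in abundance, *Ltf* (0.10) and *Ngp* (-0.11) did not pass. The part of such cells in the *Mmp8* and *Mmp9* values was not tested. Of all genes 2.58% were called higher and 3.09% lower in Act compared with CTRL. Among 7 tested osteoclast markers 3 fell, *Ctsk* (-1.64), *Atp6v0d2* (-1.04), and *Itgb3*, and 1 rose, *Acp5* (1.18). The abundant *Nfatc1* (0.13) and *Tnfrsf11a* (0.12) did not pass. With the replicate block 4 osteoclast markers fell and 1 rose, against 3.49% and 2.81% of all genes. Of the 8 monocyte markers 1 rose, *Ccr2* (1.04), and *F13a1* (0.57) and *Chil3* (-0.07) did not pass. Of 7 tested dendritic cell markers 1 fell, *Cd209a* (-2.27), and *Itgax* (-0.48) and *Dpp4* (0.99) did not pass. Of the 10 macrophage markers *Cd163*, a haemoglobin scavenger receptor, fell (-1.51, limma adjusted p = 4.1e-05). By adjusted p alone 2 of the 10 were lower and 1 was higher in Act than in CTRL, against 9.97% and 10.3% of all genes.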

How the data were processed

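RNA was sequenced from 12 BMDM libraries, 3 per group. The authors used Trimmomatic 0.39 for trimming single-end reads, STAR 2.7.9a for alignment to mm10 with Ensembl genes, featureCounts 2.0.2 for counting reads that touch exons, without those on more than 1 gene or region, and DESeq2 1.30.0 for DEGs. The deposited values are a score, namely normalized counts that the authors rounded to whole numbers. The scaling formula, the strand setting, and any removal of duplicate reads are not given in the sources used here. Rounding hides depth. The highest value per exonic base was 0.883, with a median gene at 0.0357, and whether high values are compressed was not tested.

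Because the values are not counts, log2(normalized count + 1) was tested with limma 3.58.1 (R 4.3.3, empirical Bayes with a trend), for 14318 of 18376 genes with a mean of at least 5, in a model of 4 group means over 12 libraries. Calls required a fold of 2 or more and a two-sided p, adjusted after Benjamini-Hochberg, of 0.05 or less. Fold changes on this scale understate the change of low genes. In data simulated as 12 independent libraries (14302 genes tested), 200 of 200 genes changed by a fold of 3 in Act were called, with 1 false call. The changed genes were drawn from levels above that of *Timp1*, and no effect of the replicate number was simulated. The recovery therefore does not extend to low genes such as *Timp1* or to smaller folds. An exact permutation test of 3 against 3 cannot go below p = 0.1 and was not used. Same-numbered libraries (numbers from the sample labels) deviated together from their group means in all 18 pairs (correlation 0.157 to 0.481, mean 0.312), so the replicate number was taken to pair them. The mean of -0.155 over 36 pairs with different numbers largely follows from centring each group on its mean and is no separate evidence. The alternatives were this replicate block, pseudocounts of 0.5 and 5, no filter, a mean of at least 50, recomputed TMM factors, quantile normalization, a fold of 1.5, only the groups compared, leaving out each library, and a correction, added after seeing the data, that assumes reads with the same start were counted once. The members and lists were chosen with earlier results of these data known. Named genes were all members, the list genes called in Act versus CTRL or Act versus Act + FST (at most 8 by size, and for marker lists also the 3 most abundant), the 3 genes most like each called member, and genes overlapping a member. From the list of MMP activation, docking, and clearance 1 gene is not reported here. Other list genes given beside them were chosen after their values were seen. Exon lengths came from a GENCODE annotation of GRCm38, which held 18359 of the gene identifiers, and all 10 members had the same coordinates there. Promoters came from a RefSeq table. No library was left out, and no per-sample column remained unmapped.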

Additional observations from a re-analysis of the deposited data

Results flagged for a closer look

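For 3 members the effect of activin A without FST288 (Act minus CTRL) differed from its effect with FST288 (Act + FST minus FST) by a test of that difference in limma. This count uses the adjusted p alone, which 6.74% of all genes tested passed. On the log2 scale the effect without FST288 was larger by 2.55 for *Mmp2* (adjusted p = 0.001) and by 1.28 for *Mmp14* (adjusted p = 0.013). *Mmp12* had a difference of -0.86 (adjusted p = 0.0067), a stronger fall without FST288, which did not reach 2-fold. With each of the 12 libraries left out in turn these ranged from 2.32 to 2.74, from 1.12 to 1.53, and from -0.96 to -0.74.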

How the results depend on the processing

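Over 70 log2 fold changes of the members, 1046 of 1086 alternative values kept their direction and their side of the threshold. All 160 alternative values of the members' levels stayed within the SD of their group. With 1 of 3 libraries left out this was fixed in advance, because such a mean cannot move by the SD. The other level values used recomputed TMM factors between 0.994 and 1.005. This count therefore does not show how firm the levels are. The replicate block, which pairs libraries by number, raised the members called in Act + FST versus FST from 0 to 1 (*Mmp14*, log2 fold change 1.17) and changed no other call. A pseudocount of 5 ended the call of *Timp1* in Act versus CTRL (-0.93). With 1 library left out, 38 values changed sign, none of them of a difference that was called. Their log2 ranges were, in Act versus CTRL *Mmp19* -0.0019 to 0.082 and *Timp3* -0.79 to 0.18, in Act versus Act + FST *Mmp9* -0.67 to 0.029, in Act + FST versus CTRL *Mmp2* -0.25 to 0.15, *Mmp9* -0.71 to 0.16, *Mmp8* -0.11 to 0.094, and *Mmp13* -0.39 to 0.053. Further ranges were, in FST versus CTRL *Mmp9* -0.52 to 0.20, *Mmp8* -0.10 to 0.056, *Mmp13* -0.079 to 0.26, *Mmp12* -0.17 to 0.0087, *Mmp19* -0.052 to 0.050, *Timp1* -0.041 to 0.32, *Timp2* -0.016 to 0.036, and *Timp3* -0.28 to 0.54, in Act + FST versus FST *Mmp9* -0.46 to 0.24 and *Mmp8* -0.081 to 0.12, in Act versus FST *Mmp19* -0.015 to 0.084 and *Timp3* -0.93 to 0.047, in the effect of activin A without minus with FST288 *Mmp13* -0.32 to 0.066. The cause of these changes was not tested beyond the smaller number of libraries. Recomputed TMM factors, quantile normalization, and the start position correction moved the median of all genes by less than 0.01 on the log2 scale. The normalized counts of *Timp1* (3 to 22) and *Timp3* (4 to 30) were low, and the part of counting error in their spread was not tested. With the correction for reads with the same start the Act versus CTRL difference of *Timp2* was -0.18 in place of -0.13.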
